A study of Mus musculus with 23 samples.

Results

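The genes described here are *Bex1*, *Bex2*, *Bex3*, *Bex4*, *Tceal1*, *Tceal8* and *Tceal9*, 7 members of the brain expressed X-linked (BEX) and TCEAL family. They were taken by symbol from both tables of normalized counts, where all 7 are among 35455 genes in 1 table and 35454 in the other, and all 7 had a mean normalized count of at least 10 in each. The set was selected on the normalized counts of the first table, because *Bex2* was lower in every BRAF/PI3Kα library than in BRAF libraries, so the values of that contrast are given for these genes as a description and without a test. Tests of these genes are given for comparisons that the choice did not use. The change of the genotype difference between weeks is 1 exception, as it is built from the same contrast.

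BEX proteins are small, largely disordered adaptor proteins encoded side by side on the X chromosome of placental mammals. *Bex1* and *Bex3* (also called *Nade*) encode proteins that bind the cytoplasmic part of the p75 neurotrophin receptor, and BEX2 can join a DNA binding complex with LMO2 and NHLH2. TCEAL proteins resemble the transcription elongation factor TFIIS in sequence, and TCEAL1 (p21 or SIIR) is known as a modulator of transcription. The family is best known from brain and endocrine tissue, and some members are silenced in tumors.

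Lung tumors were started in 3 to 4 month old mice of mixed genetic background, with an adenovirus that carries CRE under the surfactant protein C promoter, which directs recombination to alveolar type 2 (AT2) cells. Every mouse carried 1 Braf CAT allele (CAT/+), which after recombination expresses BRAFV600E together with tdTomato from the endogenous promoter, and tdTomato+ cells were isolated by flow sorting for RNA sequencing. In the first table, 6 BRAF libraries (CAT/+) from 2, 6 and 12 weeks p.i. (1, 3 and 2 mice) stood against 8 BRAF/PI3Kα libraries (CAT/+; HR/+, with PI3KαH1047R) from the same weeks (2, 4 and 2 mice). In the second table, all at 12 weeks, 5 BRAF/PGC1αHet libraries (CAT/+; PGC1a mutant/+) stood against 4 BRAF/PGC1αNull libraries (CAT/+; PGC1a mutant/mutant), so these controls also lacked 1 *Ppargc1a* allele. Mice harvested at 12 weeks had received less virus than those of 2 and 6 weeks, so week and titre cannot be told apart. Each library is from its own animal.

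Values are normalized counts, and their sums ran from 16433820 to 20287296 per library in the first table and from 7115753 to 9159567 in the second, so levels are compared only within a table. The whole-gene value of *Ppargc1a*, which counts reads outside the deleted part too, was 75.8, 170.2, 155, 199.5 and 561 in the Het libraries and 72.7, 38.02, 51.6 and 124 in the Null libraries, and the groups overlapped. Sex by label was uneven, with 1 male among 6 BRAF and 5 males among 8 BRAF/PI3Kα libraries. At 2 weeks the BRAF library was labelled female and both BRAF/PI3Kα libraries male. Genotype and labelled sex therefore cannot be told apart at that week. Both BRAF libraries of 12 weeks were also labelled female. In 2 libraries, BRAF/PI3Kα 12 week replicates 1 and 2, the Y-linked genes went against the label: *Eif2s3y* was 30.2 in the first, labelled male, and 1309 in the second, labelled female. All libraries held high AT2 marker levels, but the score of 12 AT2 markers (mean log2 value) was 12.82 and 11.83 in the BRAF/PI3Kα libraries of 2 weeks and 13.51 in 6 week replicate 1, against 14.37 to 15.89 in BRAF libraries. The same 3 libraries had the highest scores of 12 endothelial markers, 11.87, 11.65 and 12.10. They also had the highest scores of 12 fibroblast markers, 10.85, 11.17 and 10.83. In sorted bulk cells, fewer cells of a type and less RNA per cell cannot be told apart.

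All 7 genes lie on chromosome X of GRCm38 within a segment of the GENCODE M21 annotation that runs *Bex2*, *Bex4*, *Tceal8*, *Bex1*, *Tceal9*, *Bex3* and *Tceal1*. *Bex2* (minus strand) is at chrX:136066564-136068236, *Bex4* (plus) at chrX:136138996-136140443, *Tceal8* (minus) at chrX:136168984-136172342 and *Bex1* (minus) at chrX:136213972-136215513. *Tceal9* (plus) follows at chrX:136245079-136247139, with *Bex3* (plus) 23113 bases further on at chrX:136270253-136271978, and *Tceal1* (plus) at chrX:136707982-136711478. The RefSeq promoter windows (GRCm38.p6, 250 bases before to 50 after the annotated start) share long stretches in 2 pairs of members. The *Bex1* window (chrX:136215464-136215763, minus strand) and the *Bex4* window (chrX:136138746-136139045, plus strand) share an unbroken identical stretch of 271 bases, printed in capitals.
Bex1: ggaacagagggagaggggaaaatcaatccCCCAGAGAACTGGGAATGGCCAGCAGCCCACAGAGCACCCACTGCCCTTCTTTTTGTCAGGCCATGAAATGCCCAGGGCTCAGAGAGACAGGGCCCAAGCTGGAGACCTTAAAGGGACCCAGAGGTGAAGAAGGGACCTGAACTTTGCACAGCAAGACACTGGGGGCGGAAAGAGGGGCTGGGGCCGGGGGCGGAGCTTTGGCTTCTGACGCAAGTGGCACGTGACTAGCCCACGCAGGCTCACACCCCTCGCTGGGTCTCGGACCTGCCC
Bex4: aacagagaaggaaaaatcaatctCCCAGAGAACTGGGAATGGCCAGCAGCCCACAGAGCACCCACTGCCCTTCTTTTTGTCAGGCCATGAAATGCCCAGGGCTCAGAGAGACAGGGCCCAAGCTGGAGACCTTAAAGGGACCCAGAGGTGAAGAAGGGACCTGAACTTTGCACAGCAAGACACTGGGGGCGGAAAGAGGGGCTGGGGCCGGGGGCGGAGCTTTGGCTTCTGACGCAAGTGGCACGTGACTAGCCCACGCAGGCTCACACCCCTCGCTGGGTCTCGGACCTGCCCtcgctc
The *Bex2* window (chrX:136068187-136068486, minus strand) and the *Bex3* window (chrX:136270003-136270302, plus strand) share an identical stretch of 162 bases, again in capitals.
Bex2: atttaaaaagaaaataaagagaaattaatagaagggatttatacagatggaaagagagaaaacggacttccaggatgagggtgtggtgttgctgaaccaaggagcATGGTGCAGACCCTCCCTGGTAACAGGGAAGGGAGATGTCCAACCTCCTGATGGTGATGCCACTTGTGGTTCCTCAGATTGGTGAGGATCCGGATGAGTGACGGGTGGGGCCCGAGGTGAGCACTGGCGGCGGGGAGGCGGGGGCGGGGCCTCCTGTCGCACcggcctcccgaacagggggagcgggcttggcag
Bex3: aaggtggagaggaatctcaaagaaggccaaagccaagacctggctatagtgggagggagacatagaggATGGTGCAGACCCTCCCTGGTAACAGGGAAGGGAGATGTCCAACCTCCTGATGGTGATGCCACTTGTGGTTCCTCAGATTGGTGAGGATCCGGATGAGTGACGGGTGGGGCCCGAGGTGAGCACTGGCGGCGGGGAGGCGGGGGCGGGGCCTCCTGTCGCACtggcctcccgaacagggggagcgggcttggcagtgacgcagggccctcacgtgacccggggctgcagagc
In every other pair of members the longest identical stretch was 17 bases or less.

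The letters CACGTGAC recur around the start sites. They were noticed on reading these windows and then searched on both strands: 5 of the 7 windows held them (*Bex1*, *Bex3*, *Bex4*, *Tceal1* and *Tceal8*), against 738 of all 32851 windows (2.25%) and 2 of 5 windows of other Bex and Tceal genes. *Bex1* and *Bex4* hold it within their shared stretch, so these are not separate occurrences. Each match read in the direction of the gene, and it began between position -9 (*Bex4*) and position 28 (*Bex3*), counted from the first transcribed base as 1. The *Tceal1* window (chrX:136707965-136708004, plus strand) and the *Tceal8* window (chrX:136172211-136172250, minus strand) show it in capitals with its surroundings.
Tceal1: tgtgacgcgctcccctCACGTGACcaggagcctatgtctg
Tceal8: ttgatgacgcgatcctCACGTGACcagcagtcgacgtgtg
In *Bex2* the same letters begin at base 65 of its annotated transcript, past the end of its window. A match is a description of the sequence only.

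Likeness of the transcripts also bears on the values. Of the 31-base words in the annotated transcripts, 59.9% for *Bex4*, 40.02% for *Bex1* and 35.5% for *Bex2* also occur in transcripts of another gene, against 16.4% for *Bex3*, 2.05% for *Tceal8*, 0.0361% for *Tceal1* and 0% for *Tceal9*. *Bex1* shared 222 such words with *Bex4*, *Bex4* shared 226 with *Gm12245*, and *Bex2* shared 163 with *Bex3*. The split of reads among *Bex1*, *Bex4* and *Gm12245*, and between *Bex2* and *Bex3*, is therefore less certain than the values of the TCEAL genes. Only the partner with the most shared words was listed for each gene. *Bex1* had 495 shared words and *Bex2* had 310, so these pairs do not account for all of them. Words shared between *Bex1* and *Bex2* were not listed, and the split of reads between these genes was not tested.

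Divided by the length of the longest transcript, *Tceal9* had the highest level in BRAF libraries, 1292 ± 449.6 normalized counts per kb (SD, n = 6). *Bex4* (481 ± 245 per kb), *Tceal8* (421 ± 76.1) and *Bex3* (418 ± 178) followed and did not differ beyond their spread. Below them were *Bex2* at 250.1 ± 73.7, *Bex1* at 98.1 ± 47.6 and *Tceal1* at 19.1 ± 11.4 normalized counts per kb. In the Het libraries of the second table *Tceal9* was again highest at 1039 ± 288 per kb (n = 5), while *Bex1* (19.2 ± 12.7) and *Tceal1* (9.77 ± 1.59) were lowest.

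*Bex2*, the LMO2 partner on which the set was chosen, was lower in all 8 BRAF/PI3Kα libraries than in all 6 BRAF libraries. In BRAF tumors its normalized count was 349 at 2 weeks, 219.6, 232 and 219 at 6 weeks, and 162 and 173 at 12 weeks. In BRAF/PI3Kα tumors it was 64.5 and 96.0 at 2 weeks, 126.0, 114, 146 and 23.6 at 6 weeks, and 30.3 and 128 at 12 weeks. The lowest BRAF value, 162, thus stood above the highest BRAF/PI3Kα value, 146, and the log2 difference was -1.496 (SE 0.41), or 0.354-fold. Within weeks the mean log2 values differed by -2.13, -1.40 and -1.41 at 2, 6 and 12 weeks.

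*Bex1*, whose product binds the p75 neurotrophin receptor, was also separated between the genotypes. It stood at 111 at 2 weeks, at 148, 60.4 and 48.5 at 6 weeks, and at 43.2 and 99.1 at 12 weeks in BRAF tumors. In BRAF/PI3Kα tumors it was 3.64 and 5.83 at 2 weeks, 18.5, 36.0 and 9.09 with 1 library listed at 0 at 6 weeks, and 2.24 and 35.2 at 12 weeks. The 2 groups did not overlap, with medians of 79.8 and 7.46, and the log2 difference was -3.20 (SE 0.73) with a pseudocount of 1 and -2.63 with a pseudocount of 4. Over all 17558 genes tested, 22 (0.125%) had every BRAF/PI3Kα library below every BRAF library, and 2 of them, *Bex1* and *Bex2*, are among the 7 members. The choice of the set used this contrast, so nothing is read from that count.

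*Bex4*, which shares most of its promoter window with *Bex1*, was lower at the 2 early times and overlapped at the last. Its normalized count in BRAF tumors was 739 at 2 weeks, 402, 531 and 318 at 6 weeks, and 173 and 255 at 12 weeks. In BRAF/PI3Kα tumors it was 73.9 and 202 at 2 weeks, 147, 194, 205 and 83.7 at 6 weeks, and 201 and 333 at 12 weeks. The log2 difference was -2.59 at 2 weeks, -1.45 at 6 weeks and 0.30 at 12 weeks, and -1.15 (SE 0.37) over all weeks. The BRAF libraries ran from high at 2 weeks to low at 12 weeks, while the BRAF/PI3Kα libraries showed no such order. The 2 week difference of *Bex4* cannot be told apart from labelled sex.

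*Bex3*, which encodes the death-associated p75 receptor partner NADE, differed mainly at 2 weeks. It was 374 at 2 weeks, 653, 344 and 169.7 at 6 weeks, and 302 and 494 at 12 weeks in BRAF tumors. In BRAF/PI3Kα tumors it was 42.04 and 133 at 2 weeks, 169, 395, 268 and 291 at 6 weeks, and 293 and 322 at 12 weeks. The log2 difference was -2.30 at 2 weeks but -0.32 at 6 and -0.33 at 12 weeks. Over all weeks it was -0.82 (SE 0.45), and -0.34 without the 2 week libraries. At 2 weeks the BRAF library was labelled female and both BRAF/PI3Kα libraries male. The difference at that week therefore cannot be told apart from labelled sex.

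*Tceal9*, a TFIIS-like gene next to *Bex3*, followed the same course. It was 1218 at 2 weeks, 1692, 1159 and 826 at 6 weeks, and 972 and 2034 at 12 weeks in BRAF tumors. In BRAF/PI3Kα tumors it was 198 and 384 at 2 weeks, 679, 914, 822 and 1237 at 6 weeks, and 1141 and 1307 at 12 weeks. The 2 BRAF/PI3Kα libraries of 2 weeks stood below all others, and the log2 difference of -2.14 at that time shrank to -0.40 and -0.20 at 6 and 12 weeks. Over all weeks it was -0.80 (SE 0.39), and -0.35 without the 2 week libraries. Here too the 2 week difference cannot be told apart from labelled sex.

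The remaining TCEAL genes overlapped between the genotypes. *Tceal8* had a lowest, median and highest value of 665, 1035 and 1166 in BRAF tumors and of 612, 754 and 1056 in BRAF/PI3Kα tumors, a log2 difference of -0.34 (SE 0.18). *Tceal1* was the 1 member with a positive difference, with 13.8, 51.5 and 106 in BRAF tumors, 36.8, 92.9 and 154 in BRAF/PI3Kα tumors, and a log2 difference of 0.84 (SE 0.44). The median log2 difference of the 7 members was -0.82, beside 0.02 over all genes tested. A log2 difference of -1 or lower was found for 764 genes (4.35%) and for 3 members, *Bex1*, *Bex2* and *Bex4*, again by the contrast that chose the set. Cell markers moved with the same contrast: 12 of 12 AT2 markers were lower in BRAF/PI3Kα (median log2 difference -0.95), 12 of 12 endothelial markers higher (0.91), 12 of 12 macrophage markers higher (0.89), 8 of 12 fibroblast markers higher (0.56) and 9 of 10 alveolar type 1 markers higher (0.31). The part of these cell markers was not tested. In the 6 and 12 week libraries alone the differences of *Bex1* and *Bex2* were -2.90 and -1.37. With labelled sex as a factor the differences of *Bex1* and *Bex2* were -2.17 and -1.16, and that of *Bex3* was -0.41. Among libraries labelled female (3 BRAF/PI3Kα and 5 BRAF) those of *Bex1* and *Bex2* were -1.52 and -0.83. Among libraries labelled male (5 BRAF/PI3Kα and 1 BRAF) they were -3.63 and -1.90.

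**Figure D1:**
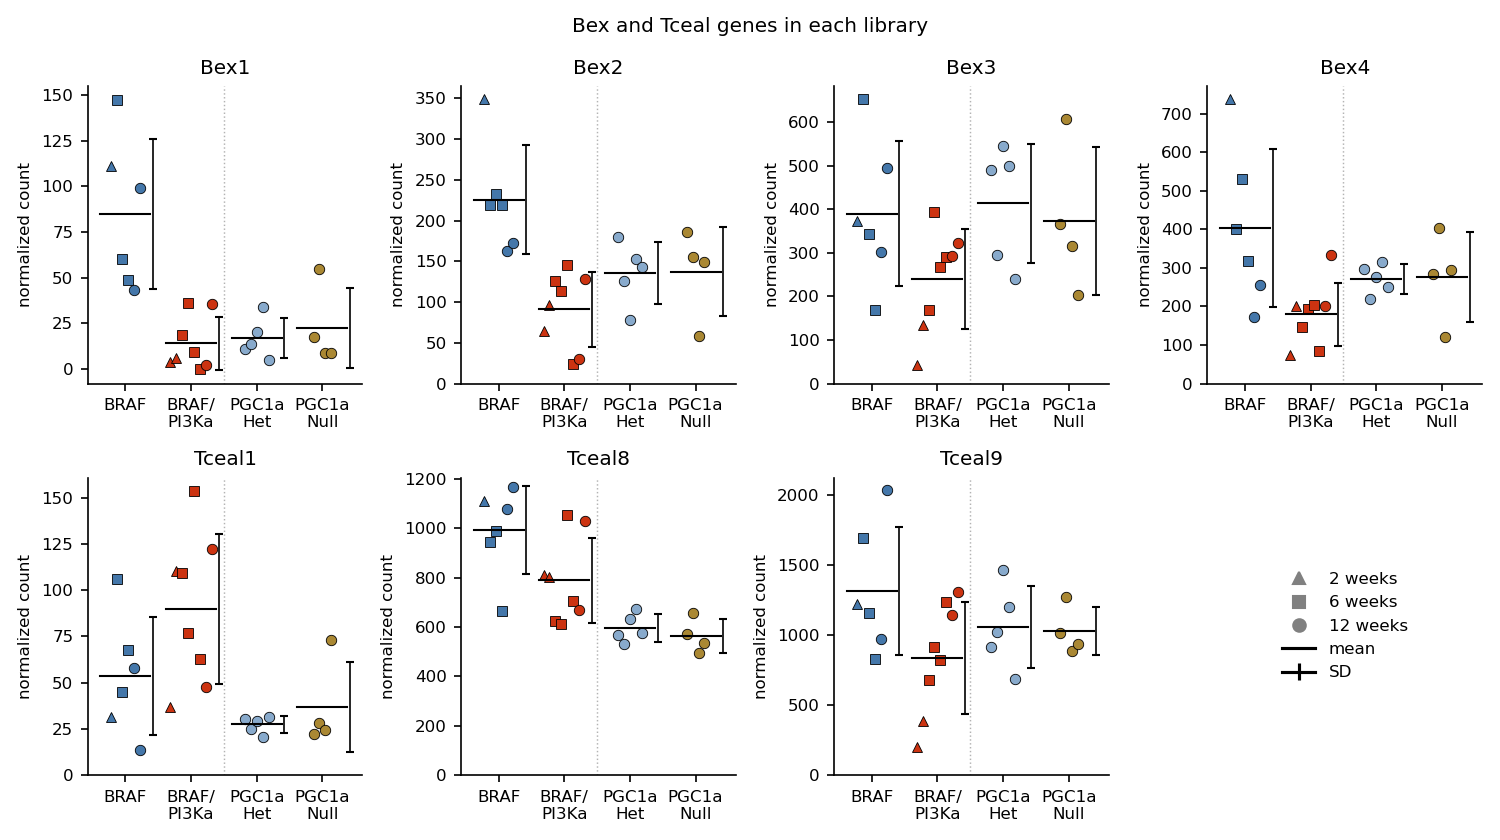
Normalized count (linear axis) of each member in every library, by genotype along the horizontal axis, with triangles, squares and circles for 2, 6 and 12 weeks, the mean as a line and the SD as a bar. The dotted line parts the 2 tables, which were normalized separately; *Bex1* and *Bex2* are the members whose BRAF and BRAF/PI3Kα points do not overlap.

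The course over tumor growth was tested with genotype held fixed, which the choice of members did not use. From 2 to 6 weeks, *Tceal9* was 2.12-fold higher (log2 1.08, SE 0.39, limma adjusted p = 0.310) and *Bex3* 2.19-fold higher (log2 1.13, SE 0.50, adjusted p = 0.397). Neither passed the adjusted threshold, and both had an unadjusted p under 0.05. The other 5 members had adjusted p of 0.612 or more, with log2 differences from -0.23 for *Tceal8* to 0.78 for *Tceal1*. Over all genes, limma called 9 of 17558 (0.0513%) at an adjusted p under 0.05 and 2095 (11.9%) at an unadjusted p under 0.05, so 2 of 7 members is to be read beside that share. The values of both genes rested on the BRAF/PI3Kα mice: within that genotype the log2 differences were 1.69 for *Tceal9* and 1.83 for *Bex3*, and within BRAF, with 1 library at 2 weeks, they were -0.05 and -0.15. Without BRAF/PI3Kα 2 week replicate 1, the pooled values were 0.59 and 0.44. Both BRAF/PI3Kα libraries of 2 weeks were labelled male, against 2 of 4 at 6 weeks. All 12 AT2 markers were also higher at 6 than at 2 weeks, with a median log2 difference of 1.65. Lower were 9 of 10 alveolar type 1 markers (median -1.04) and 10 of 12 fibroblast markers (median -0.92). The part of these cell markers in the values of *Tceal9* and *Bex3* was not tested.

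The change of the genotype difference between weeks was tested in a model with 1 term for every combination of genotype and week. The choice of the set used the same genotype contrast, so these tests are not independent of it. At 2 weeks 1 BRAF library labelled female stood against 2 BRAF/PI3Kα libraries labelled male. A change from 2 to 6 weeks therefore cannot be told apart from labelled sex. From 2 to 6 weeks the difference became less negative by 1.74 for *Tceal9* (SE 0.68, limma adjusted p = 0.494) and by 1.98 for *Bex3* (SE 0.96, adjusted p = 0.573), while 0 genes passed the adjusted threshold (0%) and 1571 (8.95%) had an unadjusted p under 0.05. From 6 to 12 weeks the largest change among the members was that of *Bex4*, 1.75 (SE 0.72, limma adjusted p = 1.00), with 0 genes (0%) called by limma and 504 (2.87%) at an unadjusted p under 0.05.

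From 6 to 12 weeks no member passed the adjusted test. The log2 differences ran from -0.74 for *Tceal1* (SE 0.49, limma adjusted p = 0.901) to 0.34 for *Tceal9* (SE 0.35, adjusted p = 0.934), with *Bex2* at -0.43 (SE 0.49, adjusted p = 0.941). Of 17558 genes, limma called 0 (0%) at the adjusted threshold and 933 (5.31%) at an unadjusted p under 0.05. Among the latter were 0 of the 7 members. From 6 to 12 weeks 12 of 12 AT2 markers (median log2 difference 0.63) and 11 of 12 macrophage markers (1.24) were higher. Lower were 10 of 12 endothelial (-0.81), 10 of 12 fibroblast (-0.75) and 9 of 10 alveolar type 1 markers (-0.56). The part of these cell markers was not tested.

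**Figure D2:**
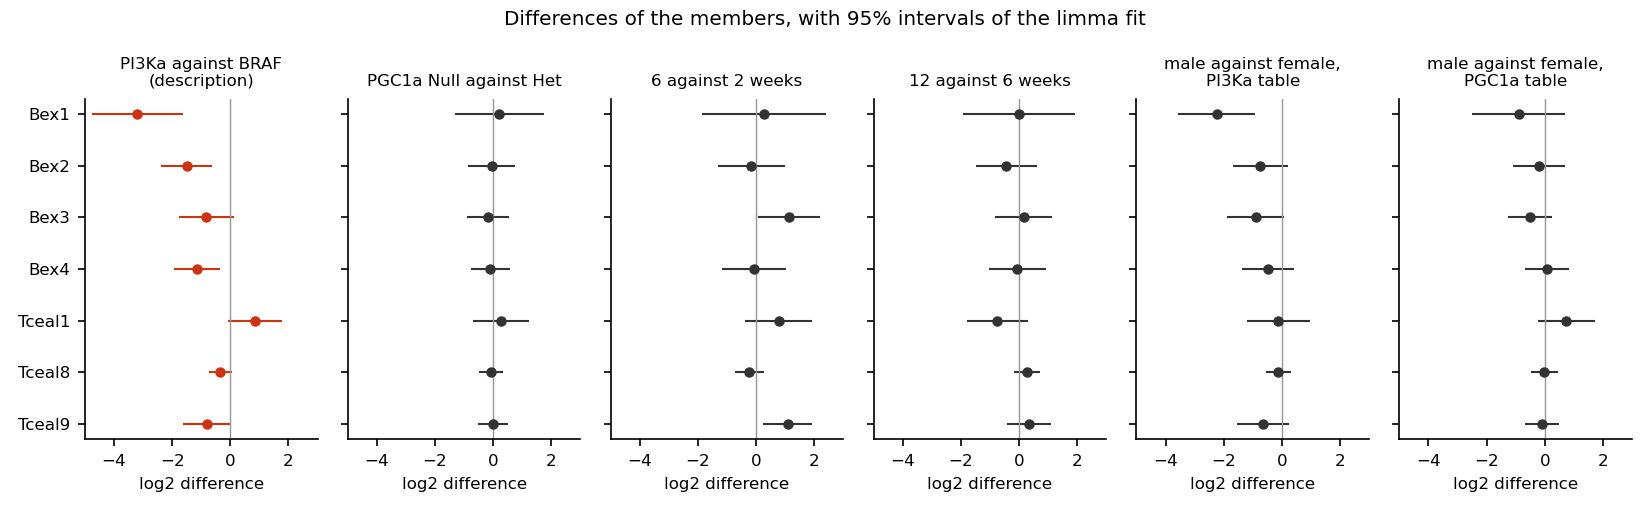
Log2 difference (horizontal axis) of each member in 6 comparisons, with 95% intervals from the limma fit. The first panel, in red, is the contrast on which *Bex2* was chosen and is a description; in the others the intervals span 0 apart from those of *Bex3* and *Tceal9* at 6 against 2 weeks and *Bex1* by labelled sex in the first table.

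*Bex3* and *Tceal9* had higher r with the AT2 marker score across libraries than *Bex2* had. Over the 14 libraries of the first table, Pearson's r with the AT2 score was 0.82 for *Bex3* (Spearman's rho 0.86) and 0.88 for *Tceal9* (rho 0.78), against 0.23 for *Bex2* (rho 0.35) and 0.47 for *Bex1* (rho 0.52). Without the 2 libraries farthest from the median score, both BRAF/PI3Kα mice of 2 weeks, r was 0.82 for *Bex3* and 0.80 for *Tceal9*. Within the 6 BRAF libraries r was 0.82 and 0.86, and within the 8 BRAF/PI3Kα libraries it was 0.78 and 0.84. For *Bex2* the values within genotypes were -0.53 and -0.09. In the 9 libraries of the second table r was 0.74 for *Bex3*, 0.64 for *Tceal9*, 0.83 for *Tceal8*, 0.67 for *Bex1* and -0.04 for *Bex2*. Endothelial and alveolar type 1 markers ran the opposite way in the first table: r with the endothelial score was -0.78 for *Bex3* and -0.80 for *Tceal9*, and with the alveolar type 1 score it was -0.73 and -0.79. With the genotype means removed these values were -0.73, -0.75, -0.72 and -0.79. With the fibroblast score r was -0.64 and -0.73, with the macrophage score -0.20 and -0.096, and with the neuroendocrine score 0.16 and 0.0083, for *Bex3* and *Tceal9* in turn. *Bex2* had r of -0.17 with the endothelial and -0.64 with the macrophage score, and of 0.21 and -0.51 with the genotype means removed. In the second table r with the endothelial score was -0.39 for *Bex3* and -0.42 for *Tceal9*, and with the alveolar type 1 score it was 0.069 and -0.31. With the genotype means removed the endothelial values there were -0.51 for *Bex3*, -0.84 for *Tceal9* and -0.72 for *Bex1*. The neuroendocrine score had r of -0.74 for *Bex3*, -0.80 for *Tceal9* and -0.86 for *Bex1*, and of -0.79, -0.81 and -0.86 with the genotype means removed. These are descriptions, given without a p, since the points of a table share its normalization and the score holds the most abundant transcripts of these cells.

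**Figure D3:**
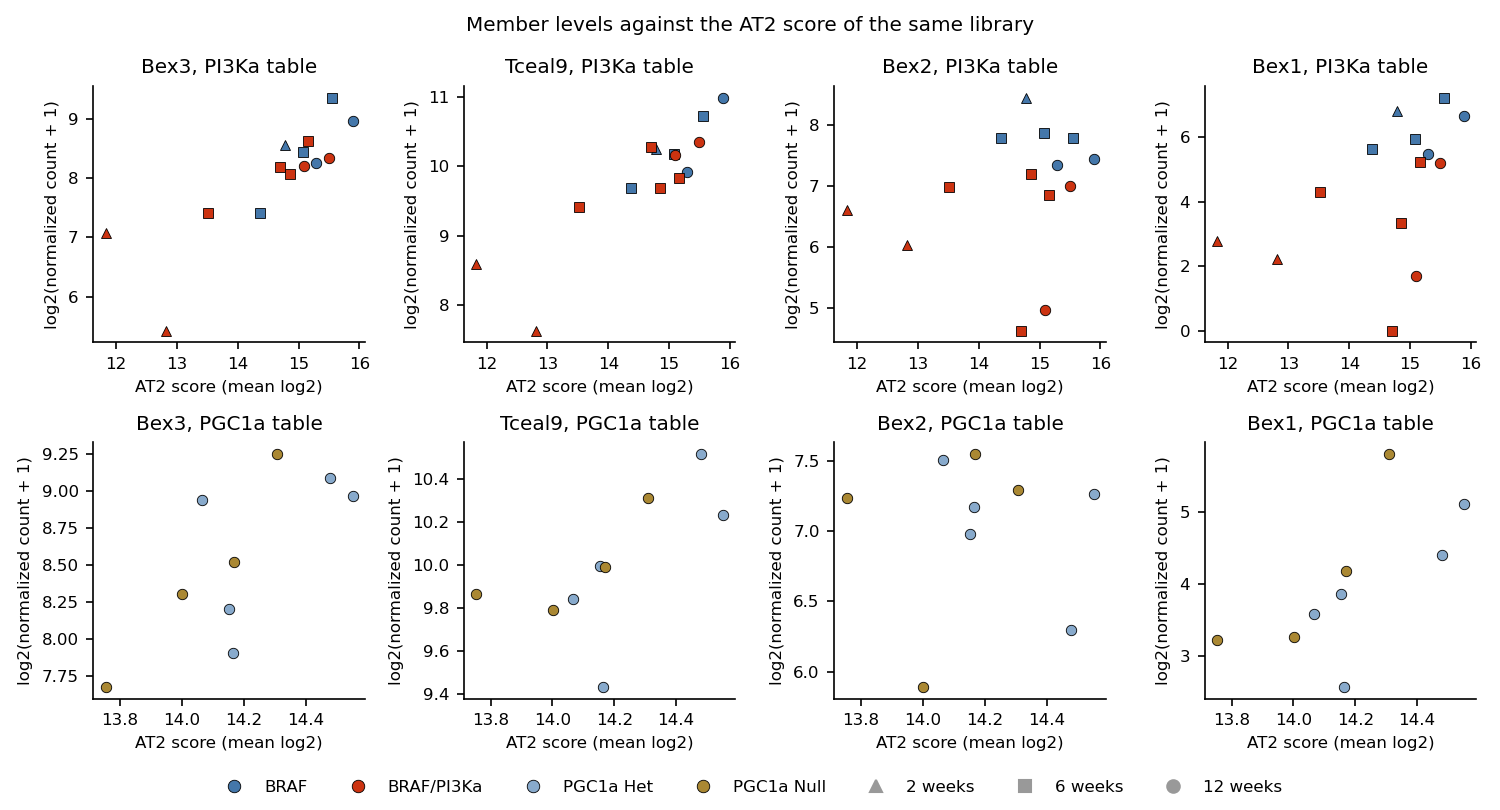
Log2(normalized count + 1) of *Bex3*, *Tceal9*, *Bex2* and *Bex1* (vertical axis) against the mean log2 value of 12 AT2 markers in the same library (horizontal axis), for 14 libraries (top) and 9 libraries (bottom). *Bex3* and *Tceal9* lie along a rising band in the top row (r = 0.82 and 0.88), and 3 BRAF/PI3Kα libraries lie below every BRAF library in AT2 score.

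Loss of the second *Ppargc1a* allele, in mice that the choice of members did not use, gave no called difference for any of the 7 genes. *Bex2* was 180.4, 125, 77.7, 152 and 143 in the Het libraries and 186, 156, 58.4 and 149.7 in the Null libraries, or 136 ± 38.1 and 137 ± 55.1 (SD, n = 5 and 4). The log2 difference was -0.05 (SE 0.37, limma adjusted p = 0.998, exact permutation p = 0.937), with a 95% interval from -0.85 to 0.75. *Bex1* was low in both, at 10.99, 13.5, 20.2, 33.7 and 4.93 in Het and at 17.2, 54.9, 8.56 and 8.33 in Null libraries (log2 difference 0.21, SE 0.71, adjusted p = 0.998, exact permutation p = 0.778). The values of *Bex1* and *Bex2* overlapped between these genotypes.

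*Bex3* was 490.3, 294, 545, 499 and 239.5 in Het and 367, 608, 315 and 204 in Null libraries, a log2 difference of -0.18 (SE 0.34). *Bex4* was 298, 218, 278, 315 and 249.4 in Het and 285, 403, 119.6 and 295 in Null libraries, a log2 difference of -0.09 (SE 0.32). The values of both genes overlapped between the genotypes. *Tceal9* ranged from 689 to 1466 and from 885 to 1270.3 (log2 -0.01, SE 0.24), and *Tceal8* from 532 to 673 and from 495 to 656 (log2 -0.08, SE 0.19). *Tceal1* was 20.6 to 31.2 in Het and 21.96, 28.0, 24.6 and 73.0 in Null libraries, where 1 library stood above the rest (log2 0.26, SE 0.45).

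The exact permutation test over the 126 splits of 9 libraries, 2-sided, gave p from 0.444 (*Tceal8*) to 0.937 for the members, where the smallest p it allows is 0.0159. Limma called 0 of 17424 genes (0%) at an adjusted p under 0.05 and 667 (3.83%) at an unadjusted p under 0.05, and 0 members were among the latter. Intervals of the log2 differences were wide for *Bex1*, from -1.31 to 1.74, and narrow for *Tceal8*, from -0.49 to 0.33. Endothelial markers moved with this genotype: the score of 12 markers was 4.40 to 6.05 in Het and 6.56 to 6.98 in Null libraries, with 12 of 12 markers higher in Null (median log2 difference 1.66). Of the fibroblast markers 11 of 11 were higher in Null (1.26) and of the macrophage markers 10 of 12 (1.22), while 11 of 12 AT2 markers were lower (-0.21). Their part in the members' values was not tested.

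Because the genes are X-linked, the labelled sexes were compared with genotype held fixed. In the first table all 7 members had lower values in males, with a median log2 difference of -0.64, beside -0.0031 over all genes. *Bex1* had the largest difference, -2.24 (SE 0.62, limma adjusted p = 0.934), and -1.94 without the 2 libraries whose Y-linked genes went against the label. In BRAF/PI3Kα tumors *Bex1* was 18.5, 36.0 and 35.2 in mice labelled female and 3.64, 5.83, 9.09, 0 and 2.24 in mice labelled male. The values 35.2 and 2.24 are those of the 2 libraries with opposite Y-linked genes, so the split by label does not follow the Y-linked genes. All 12 AT2 markers were also lower in males (median -0.88), as were 7 of 12 fibroblast markers (-0.088). Higher in males were 11 of 12 macrophage (0.53), 10 of 12 endothelial (0.31) and 8 of 10 alveolar type 1 markers (0.21). The part of these cell markers was not tested. Labelled males included both BRAF/PI3Kα libraries of 2 weeks, and week was not held fixed. Of 17558 genes, limma called 0 (0%) at the adjusted threshold and 898 (5.11%) at an unadjusted p under 0.05, and 1 of 7 members was among the latter.

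In the second table, where labels and Y-linked genes matched in all 9 libraries, no member passed the test between the sexes. *Bex1* was lower in males by a log2 difference of -0.89 (SE 0.73, limma adjusted p = 0.935), and *Tceal1* was higher by 0.75 (SE 0.45, adjusted p = 0.935). There limma called 45 of 17424 genes (0.258%) at the adjusted threshold and 656 (3.76%) at an unadjusted p under 0.05. The members were among neither. In males 5 of 5 neuroendocrine markers (median log2 difference 0.97) and 9 of 12 endothelial markers (0.75) were higher. Of the AT2 markers 10 of 12 were lower (-0.11). The part of these cell markers was not tested.

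The members did not move as 1 block. In the first table the pairs with the highest Pearson r over 14 libraries were *Bex3* with its neighbor *Tceal9* (r = 0.95, rho 0.83) and *Bex1* with *Bex2* (r = 0.92, rho 0.93). The first pair had r of 0.89 within the 6 BRAF and 0.95 within the 8 BRAF/PI3Kα libraries, and 0.75 over the 9 libraries of the second table. *Bex1* with *Bex2* had 0.40 within BRAF, 0.87 within BRAF/PI3Kα and 0.18 in the second table. *Bex2* with *Bex4* gave 0.77 and 0.75 in the 2 tables. The 2 pairs that share a stretch of their promoter windows had r of 0.77 and 0.57 (*Bex1* and *Bex4*) and of 0.31 and 0.03 (*Bex2* and *Bex3*). With the genotype means removed they had 0.57 and 0.0004 in the first table. *Tceal1* had pooled r from -0.28 to -0.05 with the other members in the first table, but with the genotype means removed r was positive with 5 of 6, at 0.45 with *Bex2*, 0.32 with *Bex4* and 0.30 with *Bex1*. Within the 8 BRAF/PI3Kα libraries its r with *Bex2* was 0.72 (rho 0.83), and within the 6 BRAF libraries it was 0.036.

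**Figure D4:**
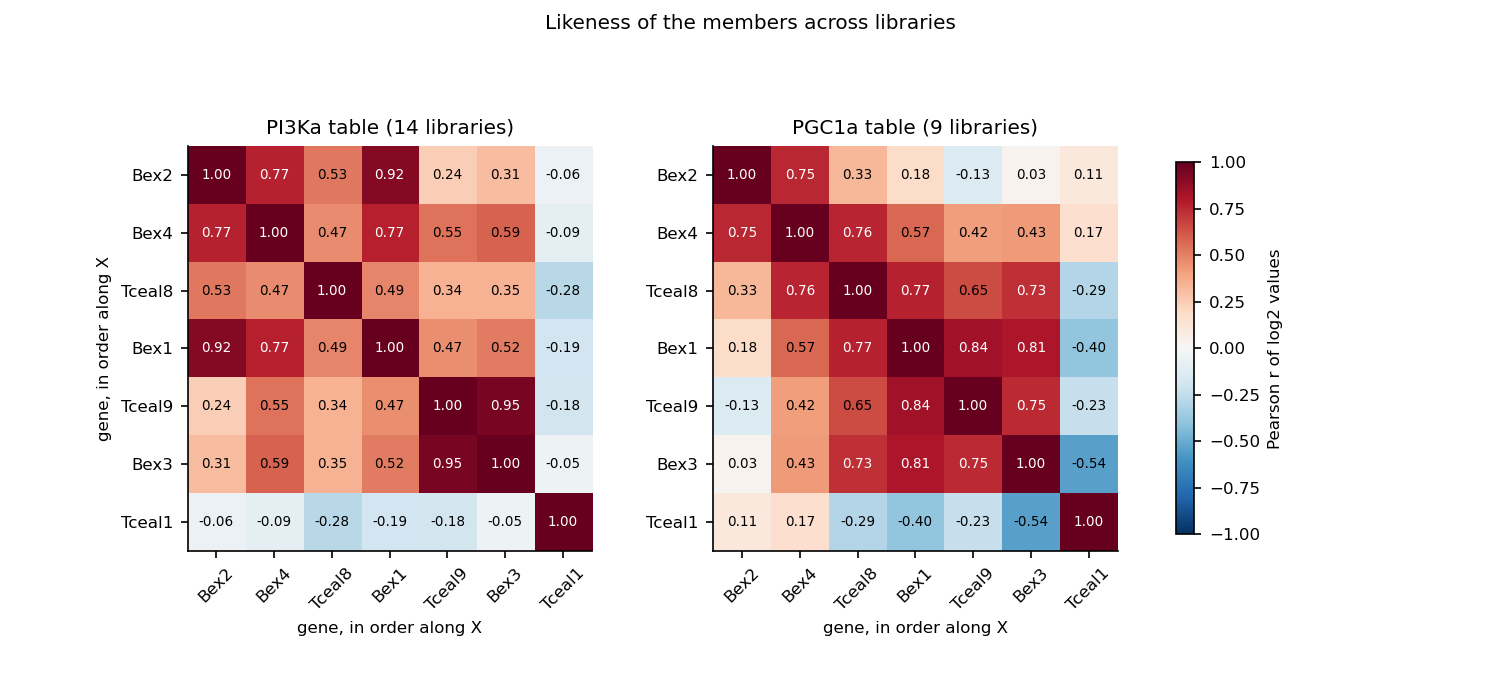
Pearson r of log2 values (color scale) between each pair of members over the 14 libraries of the first table and the 9 of the second, with the genes in their order along X on both axes. The neighbors *Tceal9* and *Bex3* have r of 0.95 and 0.75, and the pooled r of *Tceal1* in the first table runs from -0.28 to -0.05.

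The 5 genes most like *Bex2* over the 14 libraries, among genes with a mean of at least 40 in both tables, were *Pik3r2*, *Pja1*, *Ppp1r3c*, *Ctnnd2* and *St6galnac3*. *Pik3r2*, a regulatory subunit of PI3 kinase, had r of 0.86 (rho 0.64), and 0.59 without the 2 libraries farthest from the median of *Bex2*. *Pja1*, an X-linked ubiquitin ligase gene, had r of 0.84 (rho 0.64), *Ppp1r3c*, a glycogen-targeting phosphatase subunit, 0.83 (rho 0.72), *Ctnnd2*, a delta catenin, 0.83 (rho 0.79), and *St6galnac3*, a sialyltransferase, 0.83 (rho 0.81). In the 9 libraries of the second table their r with *Bex2* was -0.19, -0.29, 0.41, 0.47 and 0.17. Among 12148 genes ranked in this way, *Bex4* was number 23, *Tceal8* number 389, *Bex3* number 1757 and *Tceal9* number 2593. These ranks carry the genotype contrast that chose *Bex2*. With the genotype means removed r was 0.88, 0.81, 0.80, 0.70 and 0.72 for the 5 genes above in their order, and 0.57 for *Bex4*, 0.27 for *Tceal8*, 0.0004 for *Bex3* and -0.16 for *Tceal9*. *Bex1*, with r of 0.92 with *Bex2*, and *Tceal1* were not ranked, because their means in the second table were under 40.

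Other genes of the family were scarcely seen. *Bex6*, *Tceal3*, *Tceal5*, *Tceal6* and *Tceal7* had a summed normalized count of 6.95 at most in any library of the first table and of 30.95 at most in the second, and none reached the mean of 10. Around the cluster, 20 X-linked neighbors (ARMCX, GPRASP and other genes) were split between the genotypes of the first table, 11 higher and 9 lower in BRAF/PI3Kα, with a median log2 difference of 0.11. The most abundant of them, *Hnrnph2*, *Morf4l2*, *Gprasp1* and *Armcx3*, had log2 differences of 0.09, -0.28, -0.22 and 0.29, and none of the 20 passed an adjusted p under 0.05. In this contrast limma called 4 of 17558 genes at that threshold, with 0 of the 7 members among them. Failing it therefore does not set a list apart from the members. From 2 to 6 weeks 14 of the 20 were lower and 6 higher (median -0.21), and between Null and Het 11 of the 18 tested were higher and 7 lower (median 0.04), with 0 past the adjusted threshold in either.

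Of 15 partners and signaling genes of BEX proteins, 12 could be tested in the first table and 8 were higher and 4 lower in BRAF/PI3Kα (median log2 difference 0.21), none with an adjusted p under 0.05. *Ngfr*, the p75 receptor itself, ran from 3.16 to 54.2 normalized counts. The members of this list with the highest normalized counts were the adaptor *Ywhae*, the sorting receptor *Sort1*, the ubiquitin ligase *Traf6* and the NF-kappaB gene *Nfkb1*. The transcription cofactor gene *Lmo2* had a log2 difference of 0.94 (SE 0.55) in BRAF/PI3Kα and of 1.77 (SE 0.50, limma adjusted p = 0.682) in Null libraries. The part of endothelial cells, whose markers were higher in both of these groups, was not tested. Of the TFIIS elongation factors, *Tcea1* had the highest normalized count and differed by -0.06 (SE 0.14), with *Tcea2* and *Tcea3* at 0.29 and 0.49. Neuroendocrine cells, which express BEX genes, were assessed by 12 markers, of which 4 could be tested in the first table. These were *Cplx2*, *Syp*, *Snap25* and *Uchl1*, genes of vesicle release and of neurons, and all 4 had higher values in BRAF/PI3Kα (median log2 difference 0.34), none with an adjusted p under 0.05. Between Null and Het 5 could be tested, 2 higher and 3 lower in Null (median -0.092), also with 0 past that threshold. In the first table *Cplx2* ran from 66.7 to 281, *Syp* from 48.6 to 519 and *Snap25* from 2.28 to 78.2 normalized counts, whereas the peptide gene *Calca* was listed at 0 in 12 of 14 libraries.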

How the data were processed

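The authors prepared libraries with the Nugen Ovation Ultralow kit from RNA of sorted cells, kept samples with adequate RNA integrity, sequenced single-end reads, estimated transcript abundance with Salmon (default settings; GRCm38 per the submitters' processing notes) and scaled gene counts with DESeq2. The deposited values are DESeq2 normalized counts per gene and library, a signal scaled by the size factor of each library and not whole reads, so the depth before scaling is unknown and no count model was run here. The deposited tables of differential expression hold the authors' fold changes, means and p-values, and were not used.

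Tests were limma (version 3.58.1, R 4.3.3) with a mean-variance trend on log2(normalized count + 1), over genes with a mean of at least 10, 2-sided, with Benjamini-Hochberg adjustment over all genes and a threshold of 0.05. Fold changes on this scale understate the change of low genes. Members and gene lists were chosen with earlier results of these data known. Named genes were the 7 members, the 5 genes with the highest Pearson r with *Bex2*, and the most abundant genes of each list (up to 4) with any that passed the adjusted test; *Lmo2*, *Ngfr* and *Calca* were named after their values were seen. The lists were other Bex and Tceal genes, X neighbors, BEX partners, TFIIS factors and markers of AT2, alveolar type 1, endothelial, fibroblast, macrophage and neuroendocrine cells. A score is the mean log2 value of a list. The limma step was tested on simulated data. Promoter windows came from RefSeq (GRCm38.p6, 1 for each of the 7 members) and gene models from GENCODE M21. Replicates are animals; p-values measure the spread between them.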

Additional observations from a re-analysis of the deposited data

Results flagged for a closer look

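In 2 of 35 sets of a member and a group of 4 to 8 libraries, the lowest library stood apart by Dixon's test, in which chance marks about 1 group in 20. *Bex2* at 6 weeks in BRAF/PI3Kα tumors was 23.6 in replicate 4, with the other 3 libraries at 114 to 146, and the gap to the nearest took 0.864 of the range on the log2 scale. That library was also listed at 0 for *Bex1* and lowest of its group for *Bex4* (83.7), while its *Bex3* and *Tceal9* values, 291 and 1237, were not low. *Tceal8* in BRAF tumors was 665 in replicate 3 of 6 weeks, the 1 male of that genotype, with the other 5 libraries at 946 to 1166 (gap 0.628 of the range). The change of the genotype difference between weeks had an adjusted p above 0.05 for all 7 members.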

How the results depend on the processing

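The median log2 difference of the members between BRAF/PI3Kα and BRAF stayed negative in every alternative tried, from -1.06 (without the 2 libraries with opposite Y-linked genes) to -0.35 (6 and 12 week libraries alone), both chosen after seeing the data, and was -0.81 with a replicate block. *Bex2* ranged from -1.63 to -1.16 and *Bex1* from -3.50 to -2.17. The values within each labelled sex, given above, lie outside these ranges.

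The replicate numbers did not pair the libraries: the correlation of same-numbered deviations ran from -0.47 to 0.21, so the numbers are shared names only. In the sex comparison of the first table the replicate block gave 2 genes and, in the second, 1. The block is nested in the week and could not be fitted for comparisons between weeks. With 1 library removed a group can hold a single library, which is assumed to vary like the others.

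Counts of genes called changed as follows. From 2 to 6 weeks, 9 became 3 with a pseudocount of 4, 4 with quantile normalization, 4 with sex as a factor, 0 in BRAF alone, 2 in BRAF/PI3Kα alone and 3 without the mismatched libraries, and 1 to 102 with 1 library left out (102 without the BRAF library of 2 weeks, 47 without BRAF/PI3Kα 6 week replicate 1, 1 without BRAF/PI3Kα 2 week replicate 1). By sex in the first table, 0 became 5 without the mismatched libraries. By sex in the second, 45 became 25 with a mean over 40 and 107 over all genes with any value, and 2 to 48 with 1 library left out (2 without Null replicate 4 and 6 without Het replicate 5, both male). The cause was not tested.

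No member passed the adjusted threshold under any alternative in a tested comparison. Of 815 values of single members, 62 changed sign. For Null against Het, *Bex1* was -0.071 and *Tceal9* 0.043 with quantile normalization, and *Bex1* -0.12 with the replicate block. From 2 to 6 weeks, *Bex1* was -0.10 with quantile normalization, -0.18 with sex as a factor and -0.55 in BRAF alone, *Bex3* -0.15 and *Tceal9* -0.053 in BRAF alone, and *Bex2* 0.10 and *Bex4* 0.28 in BRAF/PI3Kα alone. From 6 to 12 weeks, *Bex1* was -0.068 with a pseudocount of 4, -0.34 with sex as a factor, -0.21 in BRAF alone and -0.41 without the mismatched libraries, *Bex4* 0.79 in BRAF/PI3Kα alone, and *Bex3* -0.12 and *Tceal9* -0.019 without the mismatched libraries. By sex in the first table, *Tceal1* was 0.14 and *Tceal8* 0.0086 without those libraries. By sex in the second, *Tceal8* was 0.025 with quantile normalization, and *Bex2*, *Tceal8* and *Tceal9* were 0.19, 0.0099 and 0.18 with the replicate block.

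With 1 library left out, signs turned in these ranges. For Null against Het, *Bex1* ran from -0.35 to 0.51, *Bex2* from -0.24 to 0.32, *Bex3* from -0.45 to 0.071, *Bex4* from -0.32 to 0.26, *Tceal1* from -0.13 to 0.44 and *Tceal9* from -0.16 to 0.11. From 2 to 6 weeks, *Bex1* ran from -0.11 to 0.89, *Bex2* from -0.41 to 0.17 and *Bex4* from -0.68 to 0.56. From 6 to 12 weeks, *Bex1* ran from -0.77 to 0.57, *Bex3* from -0.078 to 0.36 and *Bex4* from -0.48 to 0.30. By sex, *Tceal1* ran from -0.48 to 0.057 and *Tceal8* from -0.25 to 0.12 in the first table, and in the second *Bex2* from -0.51 to 0.12, *Bex4* from -0.11 to 0.20, *Tceal8* from -0.065 to 0.036 and *Tceal9* from -0.38 to 0.17.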
